A study of Epimedium pubescens with 12 samples.

Results

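GARP proteins are plant transcription factors that share a single Myb-like DNA-binding domain, and the family takes its name from maize GOLDEN2, the type-B response regulators (ARR-B) of Arabidopsis and Psr1 of the alga Chlamydomonas. The members described here are the genes of Epimedium pubescens whose transcription factor family in the deposited count table contains GARP (G2-like or ARR-B). This rule found 58 of the 53813 genes listed, and it used no expression value. Of the 58, 50 belonged to the reference annotation and 8 had been assembled by the authors from the reads. By the protein entry that the files pair with each gene, 10 were PHR-like, 4 belonged to the HRS1/HHO/NIGT1 group, 7 to LUX/PCL, 6 to GLK, 4 to KANADI, 20 to the type-B response regulators and 7 to none of these.

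The roles below are known from Arabidopsis or rice and are background to these data. PHR1 and its close relatives, PHL1 among them, bind a short element in the promoters of phosphate starvation genes and switch them on when phosphate is scarce. SPX proteins hold these factors back when phosphate is ample. This role is not taken to hold for every PHL protein. HRS1/HHO/NIGT1 proteins are repressors that respond to nitrate and phosphate supply, LUX belongs to the evening complex of the circadian clock, GLK proteins drive chloroplast genes, KANADI proteins specify the lower side of the leaf, and type-B response regulators carry the cytokinin signal to its target genes.

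RNA was sequenced from leaves of E. pubescens, a medicinal perennial of the barberry family, grown in sand in a growth chamber. The plants were seedlings of 1 year from cultivation bases, all acclimated in the same way, and no genetic change is named for any group. Per the study's methods, no obvious damage was seen at 30 d, while damage was visible at 90 d. Leaves were taken after 30 d and 90 d of irrigation with nutrient solution without phosphate (0 mmol/L, 30d -P and 90d -P) or with phosphate (1 mmol/L, 30d +P and 90d +P). Each of the 4 groups had 3 biological replicates, called A, B and C. The study's recipes for the -P and +P solutions also differed in potassium, sodium, sulfate and nitrate salts, so the supply of these ions cannot be told apart from that of phosphate. The 2 times are separate harvests, so leaf age and the length of the treatment cannot be told apart either.

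Total counts per library ranged from 14756971 to 18153463, and the Spearman correlation between replicates of a group, across genes, lay between 0.87 and 0.966. Photosynthetic genes were well read, with 55 genes for chlorophyll a-b binding proteins summing to between 23180 and 80600 CPM (counts scaled to a common library size) in a library. The 3 genes annotated as RuBisCO small subunit summed to only 27.6 to 62.7 CPM, and 2 of the 3 genes annotated as root Casparian strip proteins had no count in any library. Several marker lists of leaf tissues differed in summed level between the times, with that of guard cell and epidermis genes given below. The 24 xylem and secondary wall genes summed to between 1040 and 2088 CPM at 30 d and to between 85.5 and 420.8 CPM at 90 d, with 4 of the 24 at 0 throughout. The 14 phloem genes summed to between 57.8 and 392.9 CPM at 30 d and to between 28.5 and 52.1 CPM at 90 d. The library 90d -P B stood apart in phosphate starvation genes, where 54 glycerophosphodiester phosphodiesterase genes summed to 986.4 CPM against 102.8 and 128.3 CPM in the other two 90d -P libraries.

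GARP expression was concentrated in a few genes. Reads were counted on 47 of the 58 members in at least 1 library and on 32 members in all 12. After edgeR's filter on low counts 35 members were tested, and 23 were not. Of those 23, 11 had no read in any of the 12 libraries, which allows at most 0.0157 CPM over the libraries together (counting error only), and the others reached at most 32 reads in a library. Per kilobase of gene length, the 5 most abundant members made up 51.5% of the summed CPM of the family and the first 10 made up 75%. BOA Ebr01G048500, named after the LUX relative BROTHER OF LUX ARRHYTHMO, led with a mean of 76 CPM per kilobase. PHL6 Ebr05G001500 (49.3 CPM per kilobase), PHL7 Ebr03G001190 (47.1), GLK1 Ebr06G044550 (37) and PHL7 Ebr06G058960 (31) followed. The ranges of these 5 genes over single libraries overlapped from each rank to the next. PHR-like genes held 38.5% of the family's CPM per kilobase on average over libraries (33.1% to 48.6%), LUX/PCL genes 23.1%, GLK genes 15.7% and type-B response regulators 10.6%.

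**Figure D1:**
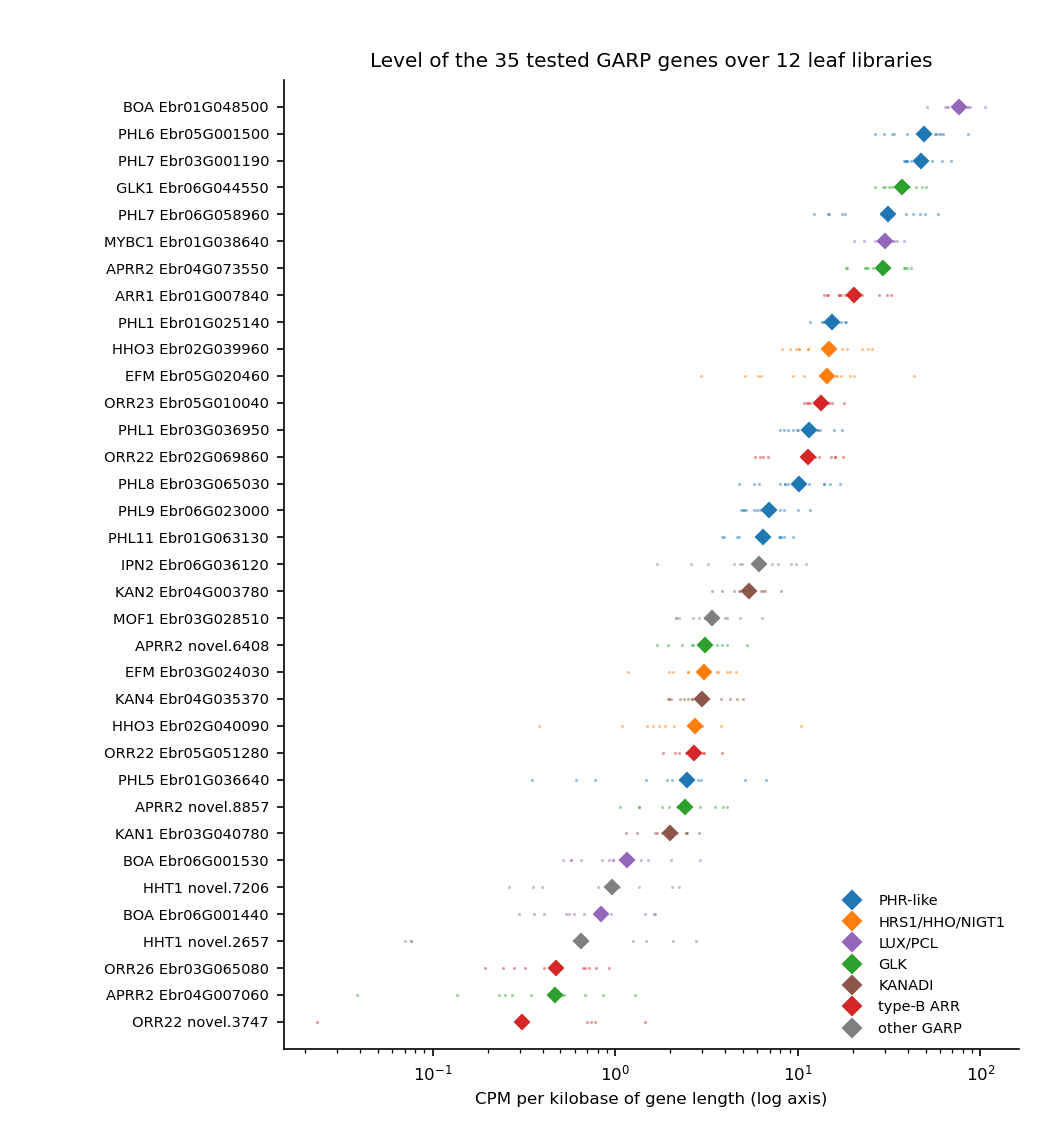
Level of each of the 35 tested GARP genes, as CPM per kilobase of gene length on a log axis. Diamonds are means over 12 libraries, small dots are single libraries (libraries at 0 cannot be drawn on this axis), and colours mark the subfamily. BOA Ebr01G048500 at 76 CPM per kilobase and 3 PHR-like genes were among the first 5.

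The subfamilies differed in how many of their genes were read at all. All 4 HRS1/HHO/NIGT1 genes and 9 of the 10 PHR-like genes were tested, against 6 of the 20 type-B response regulators. Among the latter, 7 had no read in any library. A run of LUX and BOA genes on chromosome 6 was read only in part. The LUX genes Ebr06G001400, Ebr06G001410 and Ebr06G001430 and the response regulator gene ORR25 Ebr06G001420 lie within chr6:11754343-11843286 in the authors' coordinates, and all 4 had no read in any library. Their neighbours BOA Ebr06G001440 and BOA Ebr06G001530 were read at 0.749 and 1.08 CPM on average. The annotation gave a Myb-like domain to 38 members, a receiver domain to 14, all of them type-B response regulators, and a MYB-CC domain, the coiled-coil part typical of PHR proteins, to all 10 PHR-like genes and to IPN2 Ebr06G036120.

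No GARP gene responded to phosphorus supply past the threshold at either time. A gene was called when the adjusted p of edgeR's quasi-likelihood test was at most 0.05 (Benjamini-Hochberg, over all 24307 genes tested) and its log2 fold change at least 1 in size. At 30 d, 0 of 35 members were called between 30d -P and 30d +P, where the background was 0% of all genes tested. DESeq2 on the 6 libraries, the study's own method, also called 0 members, against 1.6% of all genes, and DESeq2 on all 12 libraries (0.735% of all genes) and limma-voom (1.64%) called 0 as well. At an unadjusted p under 0.05, edgeR had 3 members lower in 30d -P and 0 higher, which is 8.57% of the members against 7.2% of all genes (4.27% lower and 2.93% higher). The 3 lower members at this time and the 3 at 90 d each include an assembled HHT1 gene that passed the filter on low counts only through +P libraries, so these counts are no support for a difference. Between 90d -P and 90d +P, 0 of 35 members were called, again with 0% of all genes. There DESeq2 on the 6 libraries (0.484% of all genes), DESeq2 on all 12 (0.641%) and limma-voom (0%) called 0 members, and 1 member was higher and 3 were lower at an unadjusted p under 0.05, which is 11.4% of the members against 5.87% of all genes (2.37% higher and 3.5% lower).

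The spread of the replicates limits what these counts can show. For 12 of the 35 members at 30 d, and 16 at 90 d, the 95% interval of the -P against +P difference lay wholly within a 2-fold change in either direction, and for the others the interval reached past a 2-fold change in at least 1 direction. Because each library is bulk leaf RNA, fewer cells of a type and less RNA per cell cannot be told apart in any of these values.

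The calls made by edgeR fell between the harvests. From 30 d to 90 d without phosphate, 2 of 35 members (5.71%) were called, both higher, beside 5.58% of all genes called, 1.63% higher and 3.95% lower. At an unadjusted p under 0.05, 6 members were higher and 1 was lower (20% of the members against 25.4% of all genes, 10.7% higher and 14.7% lower). The 6 include ORR26 Ebr03G065080, which passed the filter on low counts only because of its 90 d libraries. This count is therefore no support for a difference. The 2 called genes were PHL7 Ebr06G058960 and ORR22 Ebr02G069860. DESeq2 on the 6 libraries called the same 2 genes, of 41 members tested (4.88%), beside 9.15% of all genes. DESeq2 on all 12 libraries called 5 of 47 members (10.6%, beside 8.36% of all genes), 4 higher and 1 lower. Limma-voom called 3 of 35 (8.57%, beside 9.9%), all higher. From 30 d to 90 d with phosphate, edgeR called 0 of 35 members beside 3.02% of all genes (0.843% higher and 2.18% lower), with 5 higher and 1 lower at an unadjusted p under 0.05 (17.1% of the members against 22.1% of all genes, 9.12% higher and 13% lower). In that comparison DESeq2 on the 6 libraries called 2 of 47 members (4.26%, beside 6.04% of all genes), both higher, PHL7 Ebr06G058960 and EFM Ebr05G020460. DESeq2 on all 12 libraries called 2 of 47 (4.26%, beside 6.2%) and limma-voom 1 of 35 (2.86%, beside 8.48%). The median log2 fold change of the members was 0.01 in -P and -0.01 in +P leaves, and that of all genes was 0.03 and 0.02.

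The groups of 90d -P and 30d -P did not overlap in any library for 8 members, 4 higher and 4 lower (22.9%, against 33.3% of all genes, 15.3% higher and 18% lower). ORR26 Ebr03G065080, with the same limit from the filter, is among the 4 higher. For 90d +P and 30d +P this held for 11 members, 7 higher and 4 lower (31.4%, against 26% of all genes, 11.7% higher and 14.3% lower). BOA Ebr06G001440, which passed the filter on low counts only because of its 30 d libraries, is among these 4 lower members. Between -P and +P the groups did not overlap for 3 members at 30 d, all lower in -P and that HHT1 gene among them (8.57%, against 15.2% of all genes, 6.82% higher and 8.34% lower), and for 4 at 90 d, 1 higher and 3 lower (11.4%, against 8.92%, 4.43% higher and 4.49% lower). The interaction, which asks whether the phosphorus difference itself changed between the times, called 0 members and 0% of all genes in edgeR, 0 members in DESeq2 on all 12 libraries (0.0837% of all genes) and 0 in limma-voom (0%). At an unadjusted p under 0.05 it had 1 member, ORR22 Ebr02G069860 (2.86% of the members against 2.97% of all genes). The phosphorus difference pooled over both times called 0 members in edgeR, beside 0.00411% of all genes, with 3 members lower at an unadjusted p under 0.05 (8.57% against 10.8%). That HHT1 gene is again among the 3 and is the 1 member that DESeq2 on all 12 libraries called there, beside 1.65% of all genes. Limma-voom called 0 members, beside 0.0165%.

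**Figure D2:**
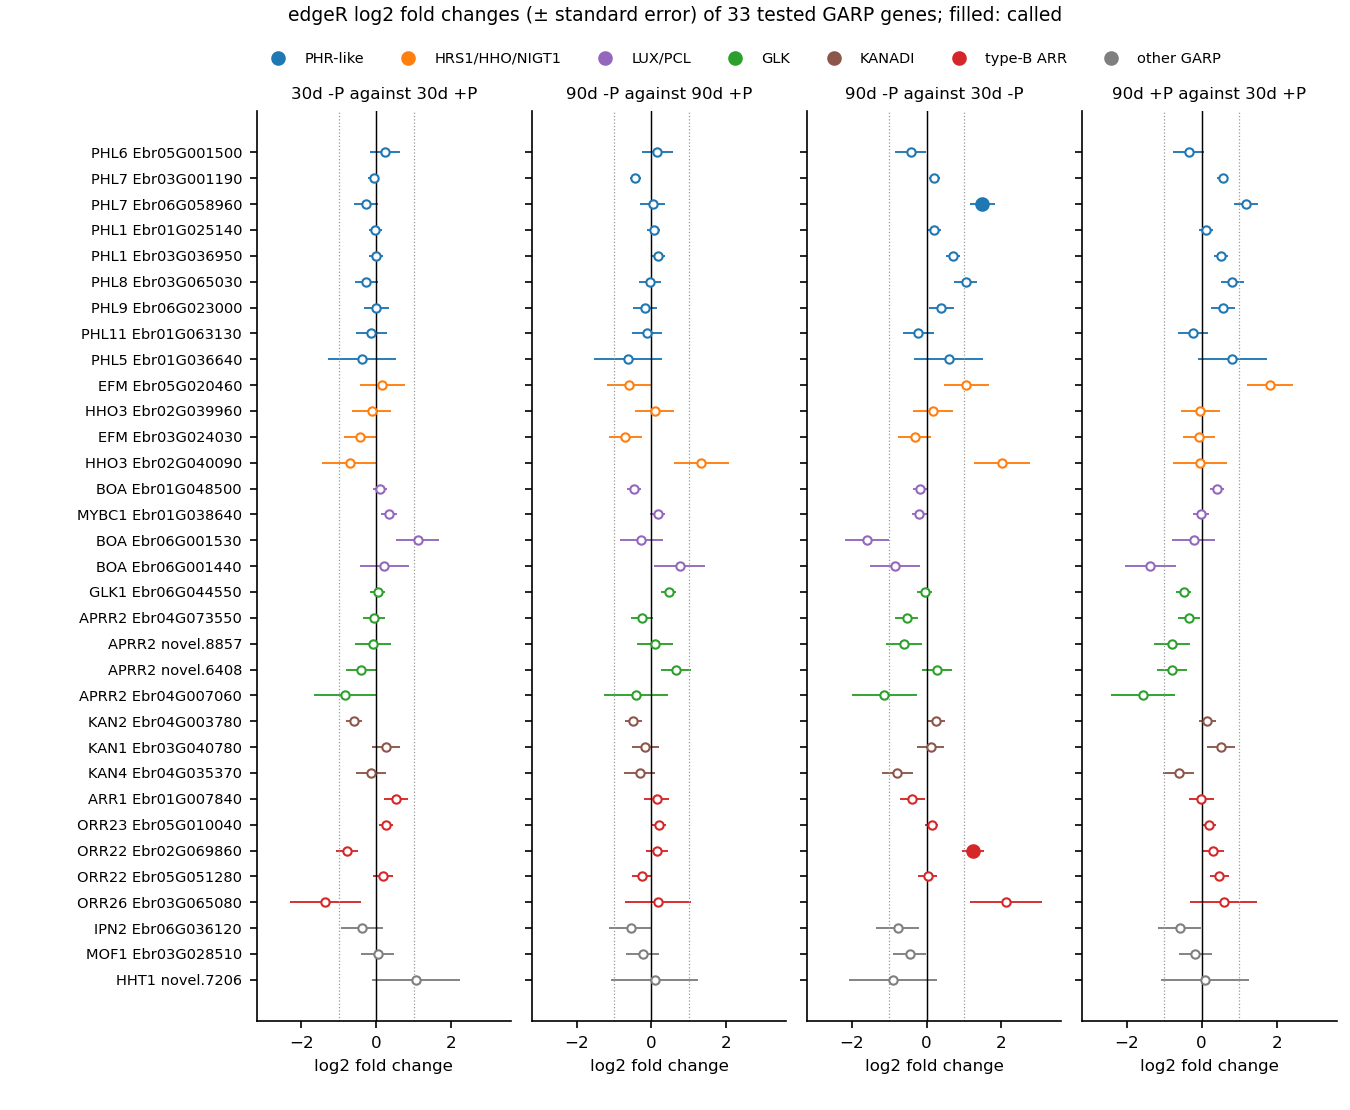
Log2 fold change of 33 tested GARP genes in the 4 comparisons of 2 groups, from edgeR's fit to 12 libraries, with bars of 1 standard error, and dotted lines at a log2 fold change of 1 in either direction. Filled points were called. PHL7 Ebr06G058960 and ORR22 Ebr02G069860 were filled, in 90d -P against 30d -P. An assembled HHT1 gene and an assembled ORR22 gene, which were at 0 in several libraries, are left out.

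Among the PHR-like genes, the relatives of the phosphate starvation regulator PHR1, phosphorus supply changed none past the threshold. No member carried the PHR1 entry itself. The 2 PHL1 genes are named after the Arabidopsis protein that acts together with PHR1. PHL1 Ebr01G025140 was read at 24.3, 31.8 and 34.3 CPM in 30d -P and at 35.7, 28 and 28.3 CPM in 30d +P, and at 31, 34.1 and 38.2 CPM in 90d -P and 32.6, 37.4 and 29.3 CPM in 90d +P. These 4 groups overlapped, and its log2 fold change for -P against +P was -0.02 ± 0.18 (SE) at 30 d and 0.06 ± 0.18 at 90 d. The 95% intervals of these differences ran from -0.43 to 0.38 and from -0.35 to 0.46. PHL1 Ebr03G036950 differed by -0.01 ± 0.19 at 30 d and 0.19 ± 0.19 at 90 d, with intervals from -0.43 to 0.40 and from -0.23 to 0.60. Over the 9 tested PHR-like genes the median log2 fold change for -P against +P was -0.07 at 30 d (2 above 0 and 7 below) and -0.04 at 90 d (4 above and 5 below), against -0.01 and -0.00 for all genes, of which 49.3% and 49.5% lay above 0. The 95% interval lay within a 2-fold change for 6 of the 9 genes at both times.

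PHL7 Ebr03G001190, the most abundant PHL7 copy, was the only tested PHR-like member of the family whose -P and +P groups stood apart at either time. It was read at 55.2, 69.9 and 66.6 CPM in 90d -P and at 86.5, 96.1 and 76.2 CPM in 90d +P, so every -P library lay below every +P library. The log2 fold change was -0.43 ± 0.15, with an unadjusted p of 0.0157 and an adjusted p of 0.842 in edgeR. At 30 d its values were 54.4, 53.6 and 58.1 CPM in -P and 65.3, 55.2 and 54.4 CPM in +P, which overlapped (log2 fold change -0.07 ± 0.15). PHL6 Ebr05G001500, the most abundant PHR-like gene, varied widely among replicates, from 60.4 to 131.1 CPM in 30d -P and from 40.5 to 93.5 CPM in 90d +P. Its -P against +P differences were 0.23 ± 0.41 and 0.16 ± 0.41.

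**Figure D3:**
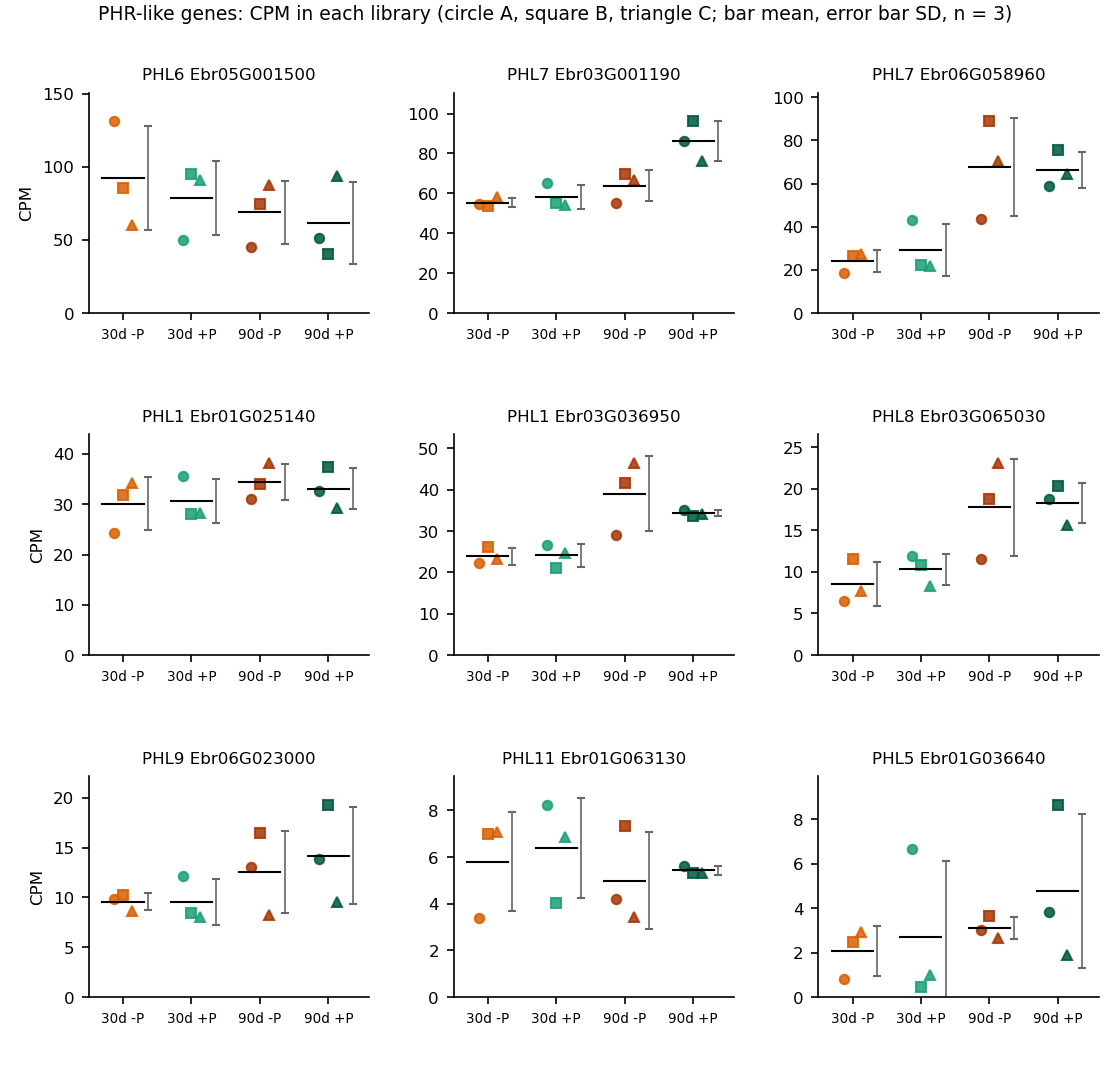
CPM of the 9 tested PHR-like genes in each of 12 libraries, by group, with the mean as a bar and the SD of 3 replicates beside it (error bars end at 0). PHL7 Ebr06G058960 lay between 18.5 and 27.5 CPM in 30d -P and between 43.5 and 88.9 CPM in 90d -P, and PHL1 Ebr01G025140 lay between 24.3 and 38.2 CPM in all libraries.

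Over time 1 of the 9 tested PHR-like genes was called, and it was higher at 90 d. PHL7 Ebr06G058960 (chr6:453357549-453371358 in the authors' coordinates, minus strand) was read at 18.5, 26.4 and 27.5 CPM in 30d -P and at 43.5, 88.9 and 70.5 CPM in 90d -P. In 30d +P it was read at 43.2, 22.4 and 22 CPM, and in 90d +P at 59.1, 75.4 and 64.5 CPM. The 90 d values lay above all 30 d values in both supplies, although the margin was narrow for 30d +P A and 90d -P A. The log2 fold change over time was 1.49 ± 0.33 in -P leaves (2.8-fold, adjusted p = 0.0329 in edgeR, called) and 1.18 ± 0.33 in +P leaves (2.27-fold, adjusted p = 0.0706, not called). The test of the difference between these time effects gave 0.30 ± 0.45 with an adjusted p of 1.00, so the rise was not shown to differ between supplies. In -P leaves the call was lost when any of 4 libraries was left out: the adjusted p became 0.117 without 30d -P A, 0.0958 without 30d -P B, 0.109 without 90d -P B and 0.0834 without 90d -P C, with log2 fold changes between 1.24 and 1.54. It was also lost in a fit of the 2 groups alone (1.51, adjusted p = 0.0601). In +P leaves it was called without 30d +P A (log2 fold change 1.57, adjusted p = 0.0245).

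Other PHR-like genes had time differences that did not pass the threshold. PHL8 Ebr03G065030 was read at 6.45, 11.5 and 7.76 CPM in 30d -P and 11.5, 18.8 and 23.1 CPM in 90d -P, and its groups overlapped only through 30d -P B and 90d -P A. Its log2 fold change was 1.05 ± 0.30 (adjusted p = 0.0649). It was called in 1 of 12 fits that left out 1 library, without 90d -P A (1.28, adjusted p = 0.0465), while leaving out 90d -P C gave 0.82 (adjusted p = 0.18) and leaving out 30d -P A gave 0.88 (adjusted p = 0.214). In +P leaves PHL8 went from 11.9, 10.8 and 8.26 CPM to 18.8, 20.3 and 15.6 CPM, which did not overlap (0.82 ± 0.30, adjusted p = 0.144). PHL1 Ebr03G036950 had 22.2, 26.2 and 23.4 CPM in 30d -P and 28.9, 41.7 and 46.4 CPM in 90d -P without overlap, with a log2 fold change of 0.70 ± 0.19 and an adjusted p of 0.0501. In +P leaves it had 26.6, 21.1 and 24.8 CPM at 30 d and 35, 33.7 and 34.2 CPM at 90 d (0.51 ± 0.19, adjusted p = 0.144). PHL7 Ebr03G001190 differed over time by 0.57 ± 0.15 in +P leaves (adjusted p = 0.0641) and by 0.21 ± 0.15 in -P leaves. PHL9 Ebr06G023000, between 8.06 and 19.3 CPM, and PHL5 Ebr01G036640, between 0.449 and 8.63 CPM, overlapped between times in both supplies, with time differences of 0.40 ± 0.33 and 0.59 ± 0.92 in -P leaves. PHL6 and PHL11 Ebr01G063130 had negative time differences in both supplies, between -0.42 and -0.22. The median over the 9 genes was 0.40 in -P leaves and 0.57 in +P leaves, with 7 above 0 in each, against 0.03 and 0.02 for all genes, of which 51.4% and 51.1% lay above 0. The untested member, PHL7 Ebr03G035060, had 3 reads in all 12 libraries together.

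These time differences stood beside changes in tissue markers. None of the 15 tested xylem markers had a log2 fold change above 0 in either supply (medians -3.18 in -P and -2.81 in +P leaves, 2 and 1 called lower by edgeR). For the 10 tested phloem markers the medians were -2.37 and -4.23, with 2 and 1 called lower by edgeR. With DESeq2 on the 6 libraries, 8 xylem and 5 phloem markers were lower in -P leaves, beside 9.15% of all genes called. In +P leaves 6 xylem and 6 phloem markers were lower, beside 6.04%. The 83 guard cell and epidermis genes summed to between 2221 and 4797 CPM at 30 d and to between 1286 and 1998 CPM at 90 d. Its members did not all go one way: of 47 tested, edgeR called 4 higher and 5 lower over time in -P leaves and 1 higher and 4 lower in +P leaves. The part of tissue makeup in the GARP differences was not tested.

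The HRS1/HHO/NIGT1 group, which in Arabidopsis represses nitrate and phosphate starvation genes, had 4 tested members and no call in edgeR. HHO3 Ebr02G040090 was read at 0.573, 2.22 and 3.12 CPM in 30d -P and at 5.7, 15.6 and 2.59 CPM in 90d -P. In +P leaves it had 4.47, 2.4 and 2.8 CPM at 30 d and 1.63, 4.07 and 3.72 CPM at 90 d. The groups overlapped in every comparison, and a single library, 90d -P B, carried the high value. Its log2 fold change over time in -P leaves was 2.01 ± 0.75 (adjusted p = 0.13) and fell to 1.06 without 90d -P B (adjusted p = 0.441). For 90d -P against 90d +P it was 1.34 ± 0.73 (adjusted p = 0.887) and 0.38 without that library. The same library was high in phosphate starvation genes: 17 PHT1 phosphate transporter genes summed to 1435 CPM there, against 359 and 878.5 CPM in 90d -P A and C. The second HHO3 gene, Ebr02G039960, was read between 11.8 and 36.8 CPM and differed by 0.17 ± 0.52 over time in -P leaves.

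EFM Ebr05G020460, named after the EARLY FLOWERING MYB protein that represses flowering in Arabidopsis, was called by edgeR in neither supply over time and by DESeq2 on the 6 libraries in +P leaves. It had 16, 10.3 and 10.7 CPM in 30d +P and 28, 73.2 and 29.5 CPM in 90d +P, and these groups did not overlap. The log2 fold change was 1.82 ± 0.61, with an adjusted p of 0.113 in edgeR and 0.00478 in DESeq2 on the 6 libraries. Without 90d +P B, the library at 73.2 CPM, edgeR gave 1.24 with an adjusted p of 0.305. In 30d -P it had 5.01, 8.74 and 27.6 CPM and in 90d -P 34.7, 32.9 and 18.4 CPM, which overlapped through 30d -P C and 90d -P C. There the log2 fold change was 1.06 ± 0.60 (adjusted p = 0.3), which ranged from 0.66 without 30d -P A (adjusted p = 0.612) to 2.06 without 30d -P C (adjusted p = 0.0499) when 1 library was left out. The call appeared in 1 of these 12 fits. The second EFM gene, Ebr03G024030, lay between 1.91 and 7.4 CPM and had time differences of -0.32 ± 0.43 in -P and -0.08 ± 0.43 in +P leaves. Among 25 nitrate genes (NRT2, NRT3, NRT1.1, nitrate reductase and NLP), 15 were tested and edgeR called 1, the nitrate transporter gene Ebr03G055670 (NRT2.7 by its entry), higher in 90d -P than in 30d -P (log2 fold change 1.81 ± 0.46, adjusted p = 0.0466). DESeq2 on the 6 libraries called 1 nitrate gene higher and 2 lower in that comparison, and 1 lower in 90d -P than in 90d +P.

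**Figure D4:**
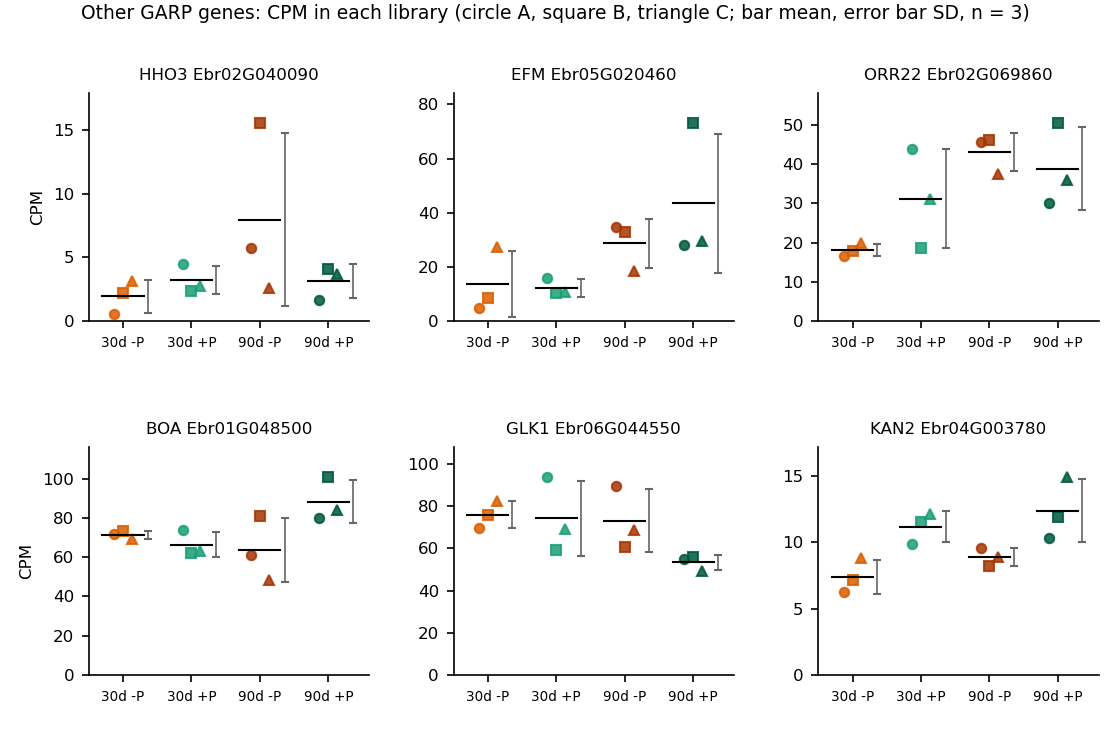
CPM of 6 GARP genes of other subfamilies in each of 12 libraries, by group, with the mean as a bar and the SD of 3 replicates beside it. HHO3 Ebr02G040090 reached 15.6 CPM in 90d -P B alone, and ORR22 Ebr02G069860 lay between 16.7 and 19.9 CPM in 30d -P and between 37.6 and 46.2 CPM in 90d -P.

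The LUX/PCL genes, relatives of a component of the evening complex, were led by BOA Ebr01G048500. It was read at 71.8, 73.4 and 69.2 CPM in 30d -P and 74, 62.2 and 63.2 CPM in 30d +P, and at 61.3, 81.1 and 48.4 CPM in 90d -P and 80.1, 101.1 and 83.9 CPM in 90d +P. The 90 d groups overlapped by a small margin, with a log2 fold change of -0.47 ± 0.19 for -P against +P (unadjusted p = 0.0313, adjusted p = 0.842). In +P leaves all 90 d values lay above all 30 d values (0.41 ± 0.19, adjusted p = 0.239), and in -P leaves they did not (-0.17 ± 0.19). MYBC1 Ebr01G038640 was steadier, between 18.6 and 35 CPM in all libraries. The weakly read BOA Ebr06G001530 was lower in every 90d -P library (0.607, 0.486 and 0.862 CPM) than in any 30d -P library (1.29, 1.89 and 2.74 CPM), with a log2 fold change of -1.59 ± 0.58 and an adjusted p of 0.125. Of 30 other clock genes 23 were tested. In +P leaves edgeR called 4, all higher at 90 d, beside 0.843% of all genes higher and 2.18% lower. They were 3 genes with the APRR5 entry (log2 fold changes 2.40, 3.32 and 3.72) and a PRR73 gene (1.41), which encode pseudo-response regulators of the clock. In -P leaves edgeR called an APRR5 gene higher (2.83) and an RVE1 gene lower (-2.11), beside 1.63% of all genes higher and 3.95% lower. With DESeq2 on the 6 libraries, 5 clock genes were higher and 1 lower in +P leaves, beside 6.04% of all genes called. In -P leaves 3 were higher and 1 lower, beside 9.15%. The hour of harvest is not given in the sources used here.

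The GLK genes hold GLK1 Ebr06G044550, named after an activator of chloroplast development, and 5 genes with the APRR2 entry. GLK1 was the only tested GARP gene whose 90d -P values all lay above its 90d +P values. It was read at 89.8, 60.9 and 68.8 CPM in 90d -P and at 54.8, 56.1 and 49.2 CPM in 90d +P, and the log2 fold change was 0.46 ± 0.20 (unadjusted p = 0.0468, adjusted p = 0.842). At 30 d it had 69.5, 75.7 and 82.4 CPM in -P and 94.1, 59.2 and 69.4 CPM in +P, which overlapped. From 30 d to 90 d it was lower in every +P library (-0.48 ± 0.20, adjusted p = 0.198) and differed by -0.05 ± 0.20 in -P leaves. APRR2 Ebr04G073550, the most abundant gene with that entry, was lower in 90d -P (43.3, 40.4 and 30.7 CPM) than in 30d -P (64, 52.5 and 49.2 CPM), without overlap, by 0.53 on the log2 scale (SE 0.30, adjusted p = 0.3). Both assembled APRR2 genes were lower in every 90d +P library than in any 30d +P library, by -0.78 ± 0.40 and -0.79 ± 0.48 (adjusted p = 0.287 and 0.372). All 5 tested GLK genes had negative time differences in +P leaves (median -0.78) and 4 of 5 in -P leaves (median -0.53). Of all genes, 51.1% and 51.4% lay above 0. The 5 include the weakly read APRR2 Ebr04G007060, which passed the filter on low counts only because of its 30 d libraries. These counts are therefore no support for a difference.

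Genes for chlorophyll, which GLK proteins activate in Arabidopsis, showed few calls in edgeR. Of 55 genes for chlorophyll a-b binding proteins 46 were tested and 0 were called for phosphorus at either time, in edgeR and in DESeq2 on the 6 libraries. For 90d -P against 90d +P, 39 of these 46 had a log2 fold change above 0 (median 0.35), beside 49.5% of all genes. For 30d -P against 30d +P 18 of 46 did (median -0.16), beside 49.3%. The 55 genes summed to 51690, 26310 and 49000 CPM in 90d -P and to 47130, 23180 and 41500 CPM in 90d +P, which overlapped. In +P leaves edgeR called 1 of the 46 over time, lower at 90 d (Ebr02G017310, log2 fold change -4.46 ± 1.06, adjusted p = 0.0486), beside 3.02% of all genes. The median there was -0.70. With DESeq2 on the 6 libraries, 4 of these genes were lower at 90 d in +P leaves, beside 6.04% of all genes called. In -P leaves 1 was lower, beside 9.15%. Of 13 chlorophyll synthesis genes 10 were tested and 0 were called by edgeR in the 4 comparisons, while DESeq2 on the 6 libraries called 1 lower in 30d -P than in 30d +P and 1 higher in 90d -P than in 30d -P.

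KAN2 Ebr04G003780, named after a KANADI protein of leaf polarity, was the only tested GARP gene whose -P values all lay below its +P values at both times. It had 6.23, 7.11 and 8.78 CPM in 30d -P and 9.87, 11.5 and 12.1 CPM in 30d +P, and 9.52, 8.2 and 8.86 CPM in 90d -P and 10.3, 11.9 and 14.9 CPM in 90d +P. The log2 fold change was -0.60 ± 0.22 at 30 d (unadjusted p = 0.0229, adjusted p = 0.67) and -0.48 ± 0.22 at 90 d (unadjusted p = 0.0558, adjusted p = 0.842). Pooled over both times it was -0.54 ± 0.16 with an unadjusted p of 0.00628 and an adjusted p of 0.304, so no call was made. KAN1 Ebr03G040780 lay between 2.47 and 6.17 CPM and its phosphorus differences were 0.25 ± 0.37 and -0.16 ± 0.37. KAN4 Ebr04G035370 was lower in 90d -P (1.82, 2.13 and 1.85 CPM) than in 90d +P (2.24, 2.47 and 2.48 CPM) and in 30d -P (3.58, 2.35 and 4.01 CPM), without overlap, at adjusted p of 1.00 and 0.27. Of 31 other leaf polarity genes (YABBY, class III HD-ZIP, AS1, AS2, ARF3 and ARF4), 15 were tested and 0 were called in edgeR in any of the 4 comparisons, while DESeq2 on the 6 libraries had 1 gene higher and 1 gene lower over time in -P leaves and 1 gene higher in +P leaves, with medians for phosphorus of -0.02 at 30 d and -0.05 at 90 d.

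Among the type-B response regulators, the transcription factors at the end of the cytokinin pathway, ORR22 Ebr02G069860 (chr2:574646114-574650069 in the authors' coordinates, plus strand) rose with time in -P leaves. It was read at 16.7, 17.9 and 19.9 CPM in 30d -P and at 45.7, 46.2 and 37.6 CPM in 90d -P, with no overlap. In 30d +P it had 43.9, 18.6 and 31.3 CPM and in 90d +P 30.1, 50.6 and 35.9 CPM, which overlapped. The log2 fold change over time was 1.25 ± 0.30 in -P leaves (2.38-fold, adjusted p = 0.0382 in edgeR, called) and 0.31 ± 0.29 in +P leaves (adjusted p = 0.59). The difference between these time effects was 0.94 ± 0.41 with an unadjusted p of 0.0454 and an adjusted p of 1.00, so it did not pass the test. At 30 d ORR22 differed between -P and +P by -0.79 ± 0.29 (unadjusted p = 0.0224, adjusted p = 0.666), with overlap through 30d +P B, and at 90 d by 0.15 ± 0.29.

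The call of ORR22 in -P leaves was lost without any of 7 of the 12 libraries. The adjusted p became 0.13 without 30d -P A, 0.117 without 30d -P B, 0.0592 without 30d -P C, 0.0577 without 30d +P C, 0.0787 without 90d -P A, 0.113 without 90d -P B and 0.0766 without 90d -P C. The log2 fold change stayed between 1.19 and 1.34 in all 12. ORR22 also shared its name with 5 other genes of the family, of which Ebr05G051280 was read between 6.21 and 13.2 CPM and differed over time by 0.03 ± 0.25 in -P leaves.

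The most abundant type-B gene, ARR1 Ebr01G007840, was read at 91.8, 78.6 and 48.7 CPM in 30d -P and 47.8, 51.1 and 53.5 CPM in 30d +P, which overlapped (0.52 ± 0.33, adjusted p = 0.787). ORR23 Ebr05G010040 lay between 28.5 and 47.6 CPM, with phosphorus differences of 0.26 ± 0.18 at 30 d and 0.20 ± 0.18 at 90 d. The weakly read ORR26 Ebr03G065080 was higher in every 90d -P library (1.52, 0.668 and 1.29 CPM) than in any 30d -P library (0, 0.457 and 0.318 CPM). It had 25, 11 and 21 reads in 90d -P and 0, 7 and 5 in 30d -P. This gene passed the filter on low counts only because of its 90 d libraries, so these values are a description, with no test. The tested gene with the ORR22 entry that was assembled by the authors had reads in 5 libraries of all 4 groups and 55 reads in 90d -P C, with 0 in the other two 90d -P libraries.

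Elsewhere in the cytokinin pathway 29 of 70 listed genes were tested. Between -P and +P 0 were called at either time by edgeR or by DESeq2 on the 6 libraries. From 30d -P to 90d -P edgeR called 2 of the 29, both higher, beside 5.58% of all genes. They were a gene with the entry of the cytokinin receptor AHK2, Ebr03G006220 (1.35 ± 0.31, adjusted p = 0.0355), and a type-A response regulator gene, ORR9 Ebr04G041690 (6.67 ± 1.52, adjusted p = 0.0414). DESeq2 on the 6 libraries called 3 listed genes there, all higher, beside 9.15% of all genes. In +P leaves 0 were called over time by either tool. Type-A response regulators are induced by cytokinin in Arabidopsis. All 4 that were tested, ORR9 among them, had time differences above 0 in both supplies, with medians of 0.95 and 0.71. Of all genes, 51.4% and 51.1% lay above 0.

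The remaining GARP genes differed in kind. IPN2 Ebr06G036120, named after a MYB-CC protein that takes part in nodulation of Lotus japonicus, was read between 2.28 and 14.9 CPM, and MOF1 Ebr03G028510, named after a rice floret regulator, between 3.88 and 11.5 CPM. Their phosphorus differences were -0.38 ± 0.57 and 0.03 ± 0.44 at 30 d and -0.56 ± 0.57 and -0.23 ± 0.44 at 90 d. A further 3 members carried the entries of acyltransferases, FACT for Ebr03G049740 and HHT1 for a pair of assembled genes, and none of the 3 had an annotated Myb-like domain, so their place in the family rests on the family column alone. The less read HHT1 gene, with 107 reads in all, had 0, 1 and 0 reads in 30d -P and 0, 1 and 0 in 90d -P, against 1, 32 and 19 reads in 30d +P and 0, 20 and 33 in 90d +P. Reads above 1 were thus found in 4 of 6 +P libraries and in 0 of 6 -P libraries. At 30 d the groups did not overlap on the CPM scale, although 30d -P B and 30d +P A held 1 read each, and at 90 d they overlapped. This gene passed the filter on low counts only through its +P libraries, so its values for -P against +P are given as a description, with no test or fold change. The other HHT1 gene lay between 0 and 2.08 CPM and its groups overlapped in every comparison.

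As whole subfamilies, PHR-like genes had summed levels of 252 ± 20.6 CPM in 30d -P leaves (mean ± SD of 3 replicates). The sums were 250 ± 8.27 CPM for 30d +P, 312.3 ± 66.7 CPM for 90d -P and 324.5 ± 15.7 CPM for 90d +P. All 3 libraries of 90d +P (306.8 to 336.5 CPM) lay above all of 30d +P (244.9 to 259.5 CPM), and 90d -P overlapped with 30d -P because of 90d -P A at 235.5 CPM. KANADI genes summed to 15.1 ± 1.49 CPM in 30d -P, 18.4 ± 2.4 in 30d +P, 15.3 ± 1.58 in 90d -P and 19.8 ± 2.32 in 90d +P, with the -P and +P ranges apart at 90 d (13.5 to 16.6 against 17.3 to 21.7 CPM) and overlapping at 30 d. The whole family summed to 710.5 ± 19.9, 691.7 ± 48.9, 764.2 ± 98.1 and 789.8 ± 99 CPM in the same order, and these ranges overlapped.

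**Figure D5:**
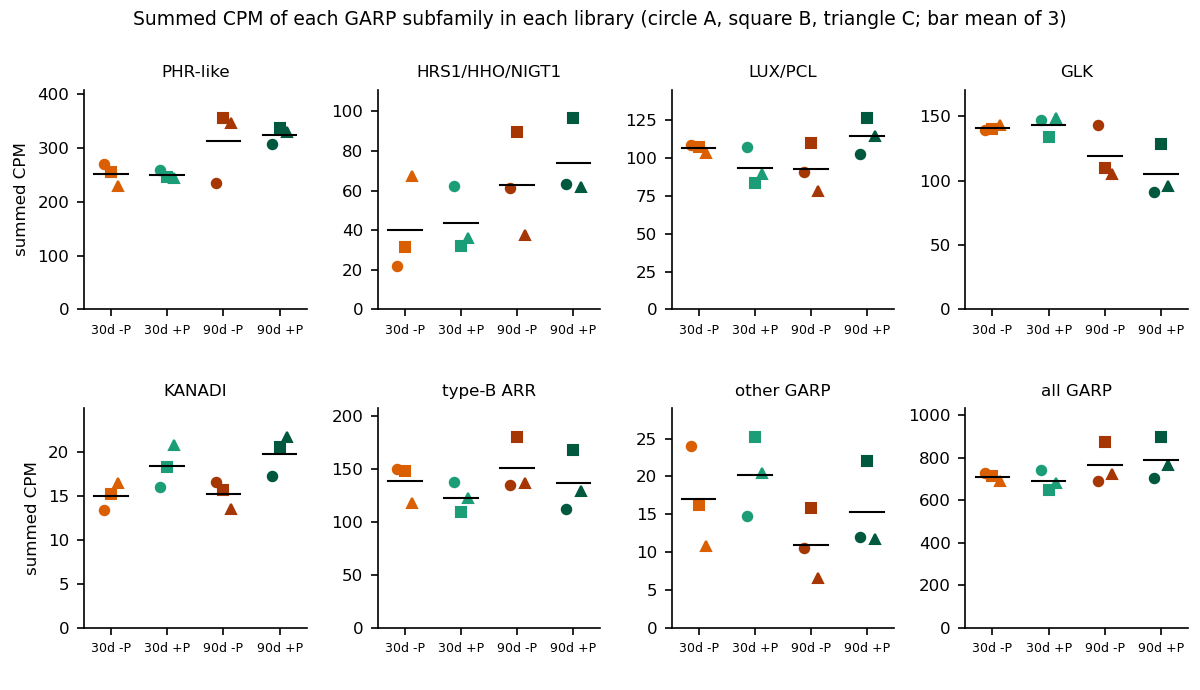
Summed CPM of the members of each GARP subfamily and of the whole family in each of 12 libraries, by group, with the mean of 3 replicates as a bar. PHR-like sums lay between 244.9 and 259.5 CPM in 30d +P and between 306.8 and 336.5 CPM in 90d +P, and the whole family overlapped between all groups.

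Genes of the phosphate starvation response gave a comparison from the same libraries. Of 173 listed genes (SPX, PHO1, PHT1, purple acid phosphatases, SQD1, SQD2, glycerophosphodiester phosphodiesterases and PHO2), 68 were tested and 0 were called for phosphorus at either time by edgeR. With DESeq2 on the 6 libraries there were 0 calls at 30 d, and at 90 d 2 genes were called higher and 1 was called lower. The median log2 fold change for -P against +P was -0.00 at 30 d, with 33 of 68 above 0, and 0.38 at 90 d, with 48 of 68 above 0, against -0.01 and -0.00 for all genes. PHO2, which the paper's introduction describes as lowered by miR399, is not an activated gene of this list. Its 2 tested genes had a median of 0.33 at 30 d, with 1 above 0, and of -1.14 at 90 d, with 0 above 0. Between -P and +P, edgeR and DESeq2 on the 6 libraries called 0 PHO2 genes at either time. The 6 listed PHO2 genes summed to 27.48, 56.25 and 42.35 CPM in 90d -P and to 53.31, 263.2 and 71.05 CPM in 90d +P. These groups overlapped, and the highest sum came from 90d +P B alone. The 16 SPX genes summed to 181.7, 650.1 and 228.5 CPM in 90d -P and to 227, 135.9 and 157.8 CPM in 90d +P. A further 3 genes with PHL entries fell outside the rule because their family column did not name GARP: PHL3 Ebr02G035230, PHL3 Ebr06G058970, whose gene number follows that of PHL7 Ebr06G058960, and PHL7 Ebr05G019010. Their log2 fold changes for -P against +P ranged from -0.28 to 0.37 at 30 d and from -0.44 to 0.19 at 90 d, at adjusted p of at least 0.837 at 30 d and 0.842 at 90 d. PHL3 Ebr06G058970 was read at 47.8, 42.1 and 45.2 CPM in 30d -P and at 55.3, 53.9 and 54.8 CPM in 30d +P. These groups did not overlap (log2 fold change -0.28, adjusted p = 0.837 in edgeR), while its 90 d groups overlapped. Over time PHL3 Ebr06G058970 differed by 0.27 in -P and 0.43 in +P leaves (adjusted p = 0.443 and 0.245).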

How the data were processed

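Leaf RNA of 12 libraries was prepared with the NEBNext Ultra kit and sequenced on a NovaSeq instrument. The authors aligned reads with HISAT2 (2.0.5), assembled further genes with StringTie (1.3.3b) and counted reads per gene with featureCounts (1.5.0-p3), and the deposited values used here are these raw counts. The genome build, the strand setting and the treatment of reads with several matches are not given in the sources used here, so close copies and overlapping genes are uncertain. The deposited FPKM values were not used. A single line of the count table was empty and was left out.

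Counts were analysed in R (4.3.3) with edgeR (4.0.16). Genes were filtered with filterByExpr, libraries were scaled by TMM, and 1 quasi-likelihood model with robust dispersions was fitted to the 4 groups of 3 replicates (8 residual degrees of freedom). P-values were adjusted by Benjamini-Hochberg over 24307 genes, and a gene was called at an adjusted p of at most 0.05 with a log2 fold change of 1 or more in size. CPM values use the TMM library sizes. P-values measure the spread between the 3 replicates of a group, and intervals and limits cover that spread or counting error only. Total counts were 14756971 to 18153463 per library. The procedure was tested on simulated data.

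The alternatives were DESeq2 (1.42.0) on the 6 libraries compared or on all 12, limma-voom (limma 3.58.1) with quality weights, other scaling and filters, a fit of the 2 groups alone, a replicate block, no fold change minimum, and leaving out each library. Members were taken by the family column, and the subfamilies by protein entry. The members and gene lists were chosen with earlier results of these data known. Genes were named by a rule: all tested PHR-like and HRS1/HHO/NIGT1 genes, the 3 tested members with the highest mean CPM in each other subfamily, every called member, the 2 highest and 2 lowest log2 fold changes without overlap in each comparison at a mean of at least 1 CPM, and members with an unadjusted interaction p under 0.05. Members named outside this rule (weakly read or unread copies, and the second ORR22 gene) were chosen after their values were seen.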

Additional observations from a re-analysis of the deposited data

How the results depend on the processing

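From 30d -P to 90d -P, the 2 called members became 0 with a replicate block (PHL7 Ebr06G058960 1.47, adjusted p = 0.0744, and ORR22 Ebr02G069860 1.24, adjusted p = 0.0842), 1 in a fit of the 2 groups alone, which lost PHL7, and 5 with DESeq2 on all 12 libraries, and 0 to 2 when 1 library was left out. From 30d +P to 90d +P, the 0 calls became 2 with DESeq2 on the 6 libraries, 2 with DESeq2 on all 12 libraries and 1 with limma-voom, and 0 to 1 when 1 library was left out. The phosphorus difference pooled over both times went from 0 calls to 1 with DESeq2 on all 12 libraries, an HHT1 gene that passed the filter only through +P libraries. The cause was not tested. No other comparison had a call under any alternative, and no direction of a called value reversed. Replicate letters did not pair the libraries: same-letter correlations of deviations ran from -0.23 to 0.21, and 3 of 12 pairs were over 0.1. For the named genes, 3565 values under an alternative kept their direction and side of the threshold, 13 gained a call and 14 lost one. With 3 replicates and a biological coefficient of variation of 0.6, many intervals reached past a 2-fold change, so the absence of a call does not show that a gene did not differ, and genes under 1 CPM rest on few reads.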
